A study of Mus musculus with 24 samples.

Results

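The interferon-stimulated genes described here are 40 mouse genes that are known to be induced by interferons, measured in bulk RNA of the kidney. They were chosen by name: 31 respond mainly to type I interferon and 9 mainly to type II interferon (Irf1, Gbp2, Gbp3, Gbp5, Gbp7, Igtp, Irgm1, Irgm2 and Iigp1). All 40 were found among the 35460 genes with reads summed over their transcripts, and all 40 passed the filter on low counts in every comparison. Rigi, which encodes the RNA sensor RIG-I, is listed under its older symbol Ddx58. In the knockout experiment Enpp1 fl/fl mice were crossed to CAG-ERCre, a transgene in which the broadly active CAG promoter drives a Cre recombinase that tamoxifen switches on. Of its kidney libraries 6 came from Cre-positive mice labelled as the ENPP1 knockout and 6 from Cre-negative mice labelled wild type, all on an adenine diet for 14 days, and 4 from mice on chow. In the antibody experiment 4 libraries came from mice given hENPP1 mAb, a monoclonal antibody to human ENPP1, and 4 from mice given control IgG, each at 50 mg/kg into the peritoneum, during 14 days of adenine. Adenine is a purine whose oxidised product crystallises in the tubules, and ENPP1 is an ectoenzyme that splits extracellular nucleotides, among them the immune messenger cGAMP. By design the deletion was not limited to a kidney cell type. Every antibody recipient and its control was on adenine, so no chow group stood beside the antibody. The sources used here give neither sex, age or strain, nor the genotype of the chow mice, nor tamoxifen for the chow and Cre-negative mice, nor a human ENPP1 gene in the antibody recipients.

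Interferons are secreted by infected or stressed cells and by immune cells. Type I interferon binds the receptor chains Ifnar1 and Ifnar2 and activates a complex that holds Stat2 and Irf9, which binds the interferon-stimulated response element (ISRE) of its target genes. Type II interferon, made mainly by T and NK cells, binds Ifngr1 and Ifngr2 and acts through the gamma-activated site (GAS). In the kidney, cytosolic DNA sensing through Cgas and Sting1 after tubular injury is a known trigger of the type I programme. The members cover transcription factors, RNA and DNA sensors, oligoadenylate synthetases, the IFIT family, ISG15 conjugation and ADP-ribosylation, antiviral effectors, and the interferon-induced GTPases.

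Both elements were searched for at the members' starts, and 6 promoters are printed because they belong to genes whose values are described further on and show the element classes side by side. Promoters were taken from RefSeq annotation on GRCm38.p6 and run from 250 bases before to 50 bases after a start site, 5' to 3' on the strand of the gene. Capitals mark matches to the ISRE, searched as GAAANNGAAA, or to the GAS, searched as TTCNNNGAA, on either strand; matches that overlap are capitalised as 1 run. Isg15 (chr4:156200769-156201068, minus strand), Ifit1 (chr19:34640639-34640938, plus), Rsad2 (chr12:26456403-26456702, minus) and Irgm1 (chr11:48871371-48871670, minus) hold ISRE matches only. Irf1 (chr11:53769764-53770063, plus) holds a GAS match only, and Gbp7 (chr3:142530086-142530385, plus) holds both.
Isg15: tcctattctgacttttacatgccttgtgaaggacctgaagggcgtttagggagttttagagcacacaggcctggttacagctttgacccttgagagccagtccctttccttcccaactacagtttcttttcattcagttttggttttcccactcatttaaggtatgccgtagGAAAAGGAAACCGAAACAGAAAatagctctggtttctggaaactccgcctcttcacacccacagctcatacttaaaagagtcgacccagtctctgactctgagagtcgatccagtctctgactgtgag
Ifit1: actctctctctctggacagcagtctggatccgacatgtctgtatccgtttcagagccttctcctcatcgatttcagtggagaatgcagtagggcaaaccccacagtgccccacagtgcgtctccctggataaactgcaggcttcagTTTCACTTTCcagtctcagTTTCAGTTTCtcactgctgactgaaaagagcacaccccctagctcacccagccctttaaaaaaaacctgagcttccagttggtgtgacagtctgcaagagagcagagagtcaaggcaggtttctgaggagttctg
Rsad2: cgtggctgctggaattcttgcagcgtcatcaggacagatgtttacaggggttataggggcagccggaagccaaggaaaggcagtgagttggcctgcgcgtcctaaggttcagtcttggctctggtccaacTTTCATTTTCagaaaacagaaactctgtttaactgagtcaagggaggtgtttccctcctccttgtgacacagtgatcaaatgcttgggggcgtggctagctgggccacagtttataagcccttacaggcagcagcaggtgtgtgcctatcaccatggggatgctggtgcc
Irgm1: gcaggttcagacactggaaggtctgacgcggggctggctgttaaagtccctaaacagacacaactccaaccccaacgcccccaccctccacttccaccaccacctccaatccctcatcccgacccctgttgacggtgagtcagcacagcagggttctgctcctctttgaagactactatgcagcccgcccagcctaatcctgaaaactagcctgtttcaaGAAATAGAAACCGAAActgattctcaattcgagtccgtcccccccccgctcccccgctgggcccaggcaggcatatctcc
Irf1: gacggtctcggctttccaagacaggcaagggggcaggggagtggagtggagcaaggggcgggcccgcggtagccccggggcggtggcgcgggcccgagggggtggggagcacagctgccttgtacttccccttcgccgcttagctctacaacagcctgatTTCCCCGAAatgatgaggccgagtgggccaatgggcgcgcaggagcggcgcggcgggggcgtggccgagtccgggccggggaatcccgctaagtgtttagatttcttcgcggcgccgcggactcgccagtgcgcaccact
Gbp7: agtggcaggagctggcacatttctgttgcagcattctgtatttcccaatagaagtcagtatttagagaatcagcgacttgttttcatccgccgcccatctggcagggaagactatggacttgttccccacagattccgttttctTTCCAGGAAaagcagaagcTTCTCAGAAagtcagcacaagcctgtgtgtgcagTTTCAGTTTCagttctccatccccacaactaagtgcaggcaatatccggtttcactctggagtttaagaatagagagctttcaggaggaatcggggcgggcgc

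Promoters were matched for 30 of the 40 members, and Mx1, Mx2, Oas2, Usp18, Zbp1, Dhx58, Parp9, Parp14, Rtp4 and Iigp1 had no entry. An ISRE match was present in 19 of the 30 (63.3%), against 3.99% of the 27025 genes with promoters in the table. A GAS match was present in 9 of the 30 (30%), against 9.55% of those genes. Among the type I members 12 of 22 held an ISRE match and 4 of 22 a GAS match, and among the type II members 7 of 8 and 5 of 8 did. Both elements were present in 6 members and neither in 8, and a match is a description of letters, not of binding.

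Each of the 16 knockout-experiment libraries had 21164187 to 28350038 assigned reads, with 16.9% to 26.7% mitochondrial, and each of the 8 antibody-experiment libraries 44080791 to 50813749, with 20.6% to 30.1%. Enpp1, the targeted gene, was at 49.9 to 55.8 CPM (counts scaled to library size by TMM) on chow, 20.9 to 24.9 in wild-type adenine and 21.5 to 24.7 in the labelled knockout. The labelled knockout was therefore not lower than the wild type in reads summed over the gene; whether those reads lie in the deleted part cannot be read from transcript totals, so these are called the labelled knockout throughout. Enpp1 was at 7.22 to 8.86 CPM with IgG, and the 4 antibody libraries held 9.51, 2.62, 3.26 and 17.4. Kidney identity was present in every library: 10 proximal tubule markers summed to between 1984 and 28177 CPM. The Y-linked gene Ddx3y was at 0.157 to 0.544 CPM in the knockout experiment and 64.9 to 97.2 in the antibody experiment, so levels are compared within an experiment only. Changes are relative to TMM scaling, which puts the typical gene near 0. On the deposited TPM scale the median of all tested genes was itself shifted by a log2 ratio of 1.0 between wild-type adenine and chow, and by -0.13 and -0.26 between labelled knockout and wild type and between antibody and IgG. In bulk RNA, fewer cells of a type and less RNA per cell cannot be told apart. The labels do not say that every library is a separate mouse, so p-values measure the spread between these libraries.

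Levels between members are compared per transcript length, in TPM. On chow the highest members were Bst2 at 43.3 ± 3.81 TPM (SD, n = 4), Ifit3 at 22.4 ± 3.82 and Irgm1 at 18.2 ± 1.91, and the lowest were Oas3 at 0.379 ± 0.0484 and Mx1 at 0.534 ± 0.409. Bst2, which tethers budding virions to the cell surface, thus had the highest level on chow, and the GTPase Mx1 was among the lowest. In wild-type adenine Bst2 (77.2 ± 12.4, n = 6) and Ddx58 (72.8 ± 8.90) led and did not differ beyond their spread, followed by Stat2 at 43.7 ± 1.82. With IgG, Ddx58 at 46.1 ± 4.70 and Irgm1 at 43.9 ± 5.94 (n = 4) led and overlapped in spread, followed by Bst2 at 30.3 ± 9.24 and Gbp2 at 29.7 ± 7.90. With the antibody Irgm1 led at 39.4 ± 5.25, and Oas3 was the lowest member in all 5 groups.

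Between wild-type adenine and chow the members differed in both directions. The genotype and tamoxifen of the chow mice are not given, so their part cannot be told apart from that of diet. Below, "after adenine" means wild-type adenine against chow. Of the 40, 23 were higher and 8 lower than on chow in edgeR's quasi-likelihood test at an adjusted p of 0.05, and 22 of the 23 and 6 of the 8 had no overlap between groups. Separation was common among all genes as well: of the 16965 tested, 6413 were higher and 6342 lower without overlap. The median log2 change was 0.43 over the members and 0.073 over the 16965 genes tested. The background was high in both directions, since 44.0% of all tested genes were higher and 40.9% lower. Of the 31 type I members 20 were higher and 4 lower (median 0.49), and of the 9 type II members 3 were higher and 4 lower (median -0.14); the difference between the subsets was not tested. Over the same groups 14 macrophage markers summed to 197 to 218 CPM on chow and 435 to 629.8 in wild-type adenine, with 12 of 14 higher and none of the 14 at 0 reads. Neutrophil markers summed to 8.25 to 12.8 CPM on chow and 43.3 to 63.3 in wild-type adenine, with all 5 tested of 8 listed higher, and 8 of 13 tested T and NK markers and 4 of 6 B and plasma cell markers were higher. Proximal tubule markers fell from 25754 to 28177 CPM on chow to 1984 to 3910.5 in wild-type adenine (10 of 10 lower, median log2 change -2.36). Endothelial markers (9 of 9 lower, median -0.93) and red blood cell markers (5 of 5 lower, median -5.75) fell as well. The part of these lists in the members' changes was not tested. Upper-quartile scaling, which moved the median of all genes by 0.23, ended the calls of Iigp1 (-0.25, adjusted p = 0.0811) and Irgm2 (-0.049, adjusted p = 0.586). It took Isg15 (0.60, adjusted p = 0.00709), Ifit1 (0.41, adjusted p = 0.0177), Ifit2 (0.38, adjusted p = 0.0154) and Gbp2 (0.34, adjusted p = 0.00139) past the threshold.

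All 4 transcription factors rose. Irf1 was at 26.3, 23.5, 25.5 and 24.6 CPM in the 4 chow libraries. The wild-type adenine libraries held 49.6 to 61.3 CPM (median 55.3), more than on chow in every library (log2 change 1.15, SE 0.063, adjusted p = 2.69e-12). Irf1 is an early target of type II interferon. Stat2, a subunit of the type I complex, was at 27.1, 26.7, 31.5 and 27.3 CPM on chow and 65.2 to 83.2 CPM (median 79.9) in wild-type adenine, again with no overlap (log2 change 1.43, SE 0.075, adjusted p = 1.27e-12). Its partner Irf9 rose by 0.97. Irf7, which amplifies type I interferon production, was at 26.7, 28.0, 26.0 and 26.9 CPM on chow and 31.1 to 53.6 CPM (median 41.0) in wild-type adenine (log2 change 0.64, SE 0.13, adjusted p = 0.000155). The groups did not overlap for Irf7 either, but its change was 0.058 (adjusted p = 0.794) when only protein-coding transcripts were summed.

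The oligoadenylate synthetases, which make the messenger that activates RNase L, rose as a family, with 5 of 5 called. Oas2 had the largest log2 change of any member: it was at 3.64, 3.88, 6.58 and 3.60 CPM on chow and 19.8 to 32.1 CPM (median 29.8) in wild-type adenine (log2 change 2.64, SE 0.18, adjusted p = 8.2e-11). Oasl2 was at 10.6, 11.7, 11.3 and 11.8 CPM on chow and 31.6 to 43.1 CPM (median 34.9) in wild-type adenine (log2 change 1.66, SE 0.089, adjusted p = 1.8e-12). Both genes were higher in every adenine library with a wide gap between the groups. Over all libraries 1.34% to 20.6% of Oasl2 reads lay in coding transcripts. Oas1a was at 8.39, 8.33, 7.81 and 8.01 CPM on chow and 8.86 to 15.2 CPM (median 10.3) in wild-type adenine, a small gap (log2 change 0.45, SE 0.13, adjusted p = 0.0033). Oasl1 changed by 1.53 and Oas3 by 0.49, and Oas3 was the called gene whose groups overlapped.

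Among the nucleic acid sensors 3 of 4 rose. Ddx58 was at 29.6, 31.8, 33.6 and 32.1 CPM on chow and 91.9 to 116 CPM (median 97.1) in wild-type adenine (log2 change 1.65, SE 0.066, adjusted p = 3.67e-14). The DNA and RNA sensor Zbp1 was at 3.84, 3.20, 2.47 and 2.94 CPM on chow and 5.29 to 9.28 CPM (median 6.32) in wild-type adenine (log2 change 1.14, SE 0.17, adjusted p = 6.05e-06). Every adenine library was above every chow library for both. Ifih1, which encodes a sensor of long double-stranded RNA, was at 14.9, 15.6, 12.7 and 15.8 CPM on chow and 11.9 to 14.7 CPM (median 13.7) in wild-type adenine, where the groups overlapped (log2 change -0.11, SE 0.080, adjusted p = 0.194). Dhx58, the regulatory helicase of the family, rose by 0.87.

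The IFIT family, which binds foreign RNA ends, had 1 lower member of 4 and none called higher in the main test. Ifit1 was at 16.3, 17.8, 15.4 and 16.8 CPM on chow and 13.3 to 27.8 CPM (median 18.4) in wild-type adenine (log2 change 0.19, SE 0.15, adjusted p = 0.257). Ifit3 was at 63.3, 58.0, 45.1 and 52.7 CPM on chow and 38.2 to 58.7 CPM (median 45.1) in wild-type adenine (log2 change -0.24, SE 0.11, adjusted p = 0.058). The groups overlapped for both genes, and Ifit3 passed the test when wild-type replicate 3 (-0.27, adjusted p = 0.0423), wild-type replicate 4 (-0.30, adjusted p = 0.0164) or chow replicate 3 (-0.30, adjusted p = 0.0272) was left out. Ifit3b, a near-identical copy of Ifit3 with which it may share reads, fell by 0.52, and Ifit2 (0.16) was not called. With upper-quartile scaling Ifit1 (0.41, adjusted p = 0.0177) and Ifit2 (0.38, adjusted p = 0.0154) were called higher.

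The ISG15 and ADP-ribosylation members divided. Isg15, which encodes the ubiquitin-like modifier, was at 12.1, 11.1, 9.05 and 9.88 CPM on chow, and the 6 wild-type adenine libraries held 9.19, 9.30, 17.7, 17.7, 11.2 and 17.2. Replicates 3, 4 and 6 were above all chow libraries and the other 3 were within the chow range (log2 change 0.38, SE 0.19, adjusted p = 0.0775). Without wild-type replicate 1 or 2 the change was 0.47 and passed (adjusted p = 0.023 and 0.0246). Usp18, which removes ISG15 and restrains the type I receptor, was at 7.29, 6.39, 5.19 and 6.69 CPM on chow and 4.65 to 6.70 CPM (median 5.29) in wild-type adenine with overlap (log2 change -0.25, SE 0.12, adjusted p = 0.068), and passed without wild-type replicate 3 (-0.32, adjusted p = 0.019) or chow replicate 3 (-0.31, adjusted p = 0.0282). Parp14, Parp9 and their partner Dtx3l, an ADP-ribosylation module, rose by 1.26, 0.92 and 0.75.

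Of the 10 antiviral effectors, 6 rose and 3 fell. Mx1, a dynamin-like GTPase against influenza viruses, was at 1.53, 1.15, 1.58 and 2.03 CPM on chow and 6.42 to 12.8 CPM (median 7.92) in wild-type adenine (log2 change 2.45, SE 0.23, adjusted p = 1.01e-08), and Mx2 rose by 1.37. Coding transcripts held 0% to 45.8% of Mx1 reads over all libraries. For Mx2 they held 0% in all 20 adenine libraries and in 3 of the 4 chow libraries, so the changes given for Mx2 rest mainly on transcripts annotated as non-coding. Rsad2, which encodes viperin, moved the other way: it was at 62.4, 65.1, 54.2 and 60 CPM on chow and 19.1 to 28.1 CPM (median 21.7) in wild-type adenine (log2 change -1.43, SE 0.091, adjusted p = 2.4e-11). Its neighbour Cmpk2, a mitochondrial nucleotide kinase, fell by 0.99, and Ifi44 fell by 0.97. Bst2 was at 42.7, 39, 36.9 and 40.4 CPM on chow and 27.8 to 44.6 CPM (median 36.1) in wild-type adenine, with overlap (log2 change -0.11, SE 0.11, adjusted p = 0.335). Xaf1 (0.73), Trim30a (0.42), Ifi35 (0.40) and Rtp4 (0.39) were the other members of this role that rose.

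The GTPases that act on the vacuoles of intracellular pathogens were mixed, with 2 of 8 higher and 4 lower. Gbp5 was at 4.84, 7.07, 6.53 and 6.49 CPM on chow and 11.1 to 18.7 CPM (median 14.9) in wild-type adenine (log2 change 1.25, SE 0.13, adjusted p = 5.42e-08), and Gbp7 rose by 0.54. Coding transcripts held 19.7% to 45.5% of Gbp5 reads on chow and 15.5% to 28.3% in wild-type adenine. The Gbp5 call held in all 17 alternatives, at changes of 0.76 to 1.48. Gbp3, Igtp, Iigp1 and Irgm2 fell. Igtp was at 29.4, 30.6, 22.3 and 25.9 CPM on chow and 12.8 to 19.0 CPM (median 15.3) in wild-type adenine (log2 change -0.80, SE 0.098, adjusted p = 3.48e-07). Iigp1 was at 22.5, 23.8, 20.7 and 22.3 CPM on chow and 10.8 to 20.6 CPM (median 15.4) in wild-type adenine (log2 change -0.48, SE 0.14, adjusted p = 0.00316). Both were lower in every adenine library than in any chow library, though the Iigp1 call ended with upper-quartile scaling. Gbp3 had the lowest change of the type II members (log2 change -0.85, SE 0.081, adjusted p = 9.31e-09), and Irgm2 (-0.28) lost its call without chow replicate 2 (-0.17, adjusted p = 0.071). Gbp2 was at 16.2, 17.1, 14.1 and 14.2 CPM on chow and 13.4 to 19.6 CPM (median 17.1) in wild-type adenine (log2 change 0.11, SE 0.088, adjusted p = 0.25). Irgm1 was at 58.4, 58.1, 49.8 and 54.5 CPM on chow and 44.5 to 63.5 CPM (median 47.8) in wild-type adenine (log2 change -0.14, SE 0.083, adjusted p = 0.113). Groups overlapped for these 2 and neither was called. Gbp2 passed without wild-type replicate 5 (0.17, adjusted p = 0.049) and Irgm1 without wild-type replicate 3 (-0.22, adjusted p = 0.00256).

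**Figure D1:**
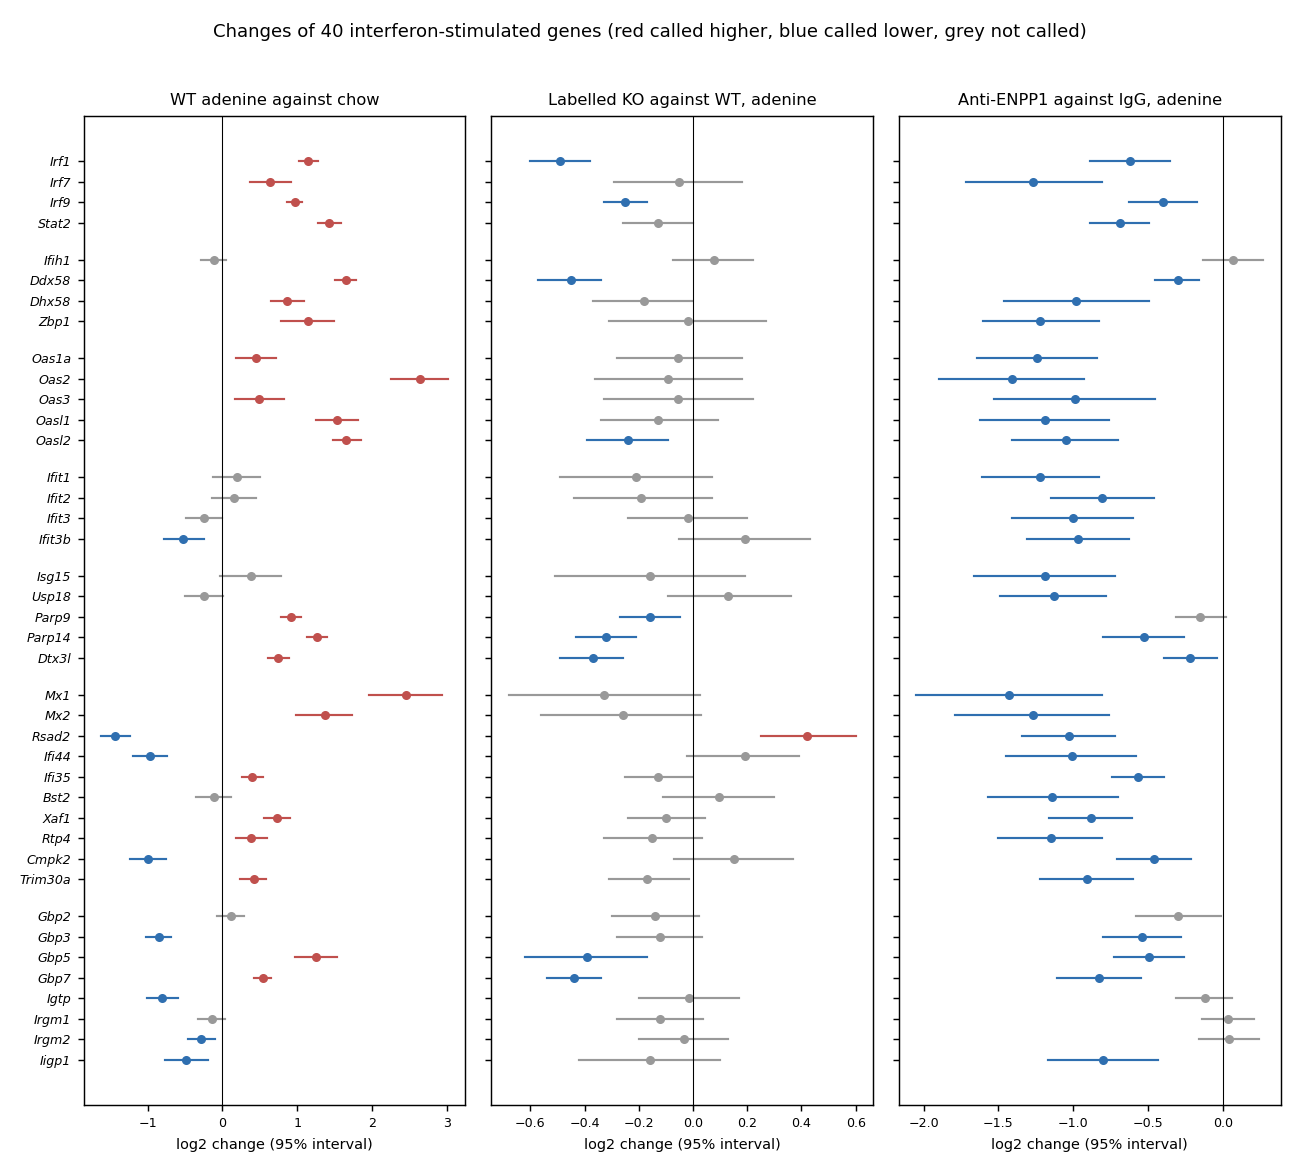
Log2 change with 95% interval of the 40 members, grouped by role, for wild-type adenine minus chow, labelled knockout minus wild type on adenine, and antibody minus IgG. The changes span -1.43 (Rsad2) to 2.64 (Oas2) for adenine, -0.49 (Irf1) to 0.42 (Rsad2) for the labelled knockout and -1.43 (Mx1) to 0.069 (Ifih1) for the antibody.

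The labelled knockout differed from the wild type on adenine in few members and by small amounts. Of 40 members 9 were lower and 1 higher, while 21.3% of the 16965 tested genes were lower and 25.1% higher. The share of lower members (9 of 40) is near that background, and the members' median was -0.13 against -0.020 over all genes. With upper-quartile scaling, which moved the median of all genes by -0.064, 16 members were lower, and the share of higher genes among all calls went from 54.1% to 40.8%. The 9 lower members were Irf1, Irf9, Ddx58, Oasl2, Parp9, Parp14, Dtx3l, Gbp5 and Gbp7. Groups had no overlap for 6 of them (not for Oasl2, Gbp5 and Parp9). Of the 16965 tested genes 1736 were lower and 2448 higher without overlap. Type I members were lower in 6 of 31 and type II members in 3 of 9.

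Irf1 had the lowest change. The labelled knockout libraries held 35.2 to 42.1 CPM (median 39.7), each less than any wild-type library on adenine (log2 change -0.49, SE 0.053, adjusted p = 9.49e-07). Gbp7 ranged over 39.9 to 44.4 CPM (median 40.5) in the wild type and 27.2 to 34.4 CPM (median 29.8) in the labelled knockout (log2 change -0.44, SE 0.048, adjusted p = 9.67e-07). Ddx58 ranged over 66.2 to 78.0 CPM (median 72.8, log2 change -0.45, SE 0.055, adjusted p = 2.88e-06). In these 3 genes the mean of the labelled knockout lay between those of chow and the wild type on adenine. Dtx3l (-0.37), Parp14 (-0.32) and Irf9 (-0.25) were lower with no overlap as well. Gbp5 ranged over 9.91 to 12.1 CPM (median 11.4, log2 change -0.39, SE 0.11, adjusted p = 0.00636). Oasl2 ranged over 26.6 to 35.4 CPM (median 29.8, log2 change -0.24, SE 0.070, adjusted p = 0.00869). Both overlapped with the wild type, and neither passed when protein-coding transcripts alone were summed (adjusted p = 0.287 and 0.961).

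Rsad2 was the 1 member that rose. It ranged over 25.9 to 33.4 CPM (median 30.6) in the labelled knockout, with overlap (log2 change 0.42, SE 0.084, adjusted p = 0.000498), and Ifit3b joined it when wild-type replicate 4 was left out (0.28, adjusted p = 0.0375). The groups overlapped in the classical type I genes Isg15, Ifit1, Ifit3 and Mx1. Isg15 was at 12.5, 10.5, 10.6, 16.2, 11.1 and 12.6 CPM in the 6 labelled knockout libraries (log2 change -0.16, SE 0.17, adjusted p = 0.455), and all of them lay within the wild-type range. Ifit1 ranged over 14.7 to 19.1 CPM (median 15.6, log2 change -0.21, SE 0.13, adjusted p = 0.207). Ifit3 ranged over 37.5 to 50.0 CPM (median 46.5, log2 change -0.020, SE 0.10, adjusted p = 0.895). Both IFIT genes overlapped with the wild type. Mx1 ranged over 5.41 to 8.83 CPM (median 6.86, log2 change -0.33, SE 0.17, adjusted p = 0.119). The 95% interval of the Isg15 change ran from -0.51 to 0.19 and that of Mx1 from -0.68 to 0.024, so differences of that size could not be told from 0.

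The other members described by value were not called either. In the labelled knockout Oas1a ranged over 8.66 to 11.9 CPM (median 10.8, log2 change -0.054, SE 0.11, adjusted p = 0.715). Irf7 ranged over 37.8 to 43.5 CPM (median 40.5, log2 change -0.053, SE 0.11, adjusted p = 0.727). Stat2 ranged over 67.8 to 71.9 CPM (median 69.7, log2 change -0.13, SE 0.062, adjusted p = 0.0947). The labelled knockout libraries lay closer together than the wild-type ones in all 3. Stat2 passed without wild-type replicate 1 (-0.17, adjusted p = 0.0258) or 2 (-0.17, adjusted p = 0.021). Usp18, the ISG15 protease, ranged over 5.09 to 6.87 CPM (median 5.92, log2 change 0.13, SE 0.11, adjusted p = 0.33). The sensor Zbp1 ranged over 5.86 to 7.92 CPM (median 6.56, log2 change -0.020, SE 0.14, adjusted p = 0.923). Both spans overlapped those of the wild type. Ifih1 ranged over 13.0 to 16 CPM (median 14.0, log2 change 0.076, SE 0.071, adjusted p = 0.401). Bst2 ranged over 34.6 to 45.7 CPM (median 39.1, log2 change 0.095, SE 0.097, adjusted p = 0.449). None of these 4 separated the groups. Mx2 passed without wild-type replicate 2 (-0.34, adjusted p = 0.0496), Ifi35 without wild-type replicate 5 (-0.17, adjusted p = 0.0109), Dhx58 without labelled knockout replicate 4 (-0.24, adjusted p = 0.0293), and Trim30a without labelled knockout replicate 5 (-0.20, adjusted p = 0.0337) or wild-type replicate 2 (-0.20, adjusted p = 0.0233).

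The groups also overlapped in 4 type II GTPases. Gbp2 ranged over 14.3 to 16.4 CPM (median 15.2) in the labelled knockout (log2 change -0.14, SE 0.077, adjusted p = 0.152). Irgm1 ranged over 41.6 to 50.4 CPM (median 45.8, log2 change -0.12, SE 0.074, adjusted p = 0.202). Neither had a library outside the wild-type range on the high side. Igtp ranged over 14.1 to 16.4 CPM (median 15.4, log2 change -0.015, SE 0.090, adjusted p = 0.91). Iigp1 ranged over 12.6 to 15.7 CPM (median 14.4, log2 change -0.16, SE 0.12, adjusted p = 0.3). Gbp2 passed when wild-type replicate 5 was left out (-0.20, adjusted p = 0.025). In the same groups, 10 of 10 proximal tubule markers and 5 of 5 red blood cell markers were higher in the labelled knockout, 2 of 14 macrophage markers were lower, and no gene of these lists was at 0 reads; their part in the members' changes was not tested.

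Against chow, the labelled knockout on adenine had 22 members higher and 10 lower, beside 40.2% and 39.9% of all tested genes. The median was 0.26 over the members and 0.028 over all genes. The chow libraries are the same as for the wild type, so the 2 comparisons are given side by side only. Oas2 again changed most (log2 change 2.55, SE 0.18, adjusted p = 2.34e-10, against 2.64 in the wild type) and Rsad2 fell most (log2 change -1.01, SE 0.090, adjusted p = 5.61e-09, against -1.43). In the type II subset Gbp5 rose by 0.86, a call that was lost with protein-coding transcripts only (0.47, adjusted p = 0.0946), and Gbp3 was lowest at -0.98. Gbp7 was called in the wild type and not in the labelled knockout, where its change was 0.10 (adjusted p = 0.122). That result depended on processing. Gbp7 passed with upper-quartile scaling (0.26, adjusted p = 0.000484) and with protein-coding transcripts only (0.19, adjusted p = 0.00535). It also passed without labelled knockout replicate 6 (0.12, adjusted p = 0.0378). Calls near the threshold were Ifit3 (-0.26, adjusted p = 0.0444), Ifit3b (-0.33) and Rtp4 (0.25). Each was lost on leaving out single libraries, with adjusted p up to 0.253 for Ifit3 and 0.122 for Ifit3b (both without chow replicate 1), and 0.111 for Rtp4 (without chow replicate 3).

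Members of every role were lower with the antibody than with IgG. None of 40 was higher and 34 were lower, where 27.2% of the 16410 tested genes were higher and 28.0% lower. At an unadjusted p under 0.05 the count of higher members was also 0, and DESeq2 gave 0. The groups had no overlap for 31 of the 34, while of the 16410 tested genes 4139 were lower and 4170 higher without overlap. The median log2 change was -0.90 over the members, -1.0 over the 31 type I members (29 lower) and -0.49 over the 9 type II members (5 lower), against -0.036 over all genes. The 6 members not called were Ifih1, Gbp2, Parp9, Igtp, Irgm1 and Irgm2. With upper-quartile scaling, which moved the median of all genes by -0.16, 37 were lower, and the share of higher genes among all calls went from 49.3% to 31.1%. Without antibody replicate 4 and IgG replicate 2, the 2 libraries farthest from their groups in tissue markers, 33 were lower and the median was -0.73.

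Other cell types' markers moved between the same groups. The 14 macrophage markers summed to 448 to 878 CPM with IgG and 199.5 to 293 with the antibody, with 13 of 14 lower, a median change of -1.34 and none at 0 reads. All 7 fibroblast markers and all 4 tested neutrophil markers of 8 listed were lower, with sums of 368 to 680.2 against 141 to 221 CPM and 15.8 to 23.1 against 8.16 to 11.5, and Elane was at 0 reads. B and plasma cell markers summed to 14.3 to 19.0 against 5.11 to 8.07 CPM (2 of 4 tested lower) and plasmacytoid dendritic cell markers to 2.71 to 3.75 against 1.67 to 2.63 (2 of 3 tested lower). The 14 T and NK markers summed to 13.2 to 19.0 against 8.77 to 13.0 CPM, and 3 of 13 tested were lower. Proximal tubule markers moved the opposite way, from 3480.3 to 7081 CPM with IgG to 13565 to 21625 with the antibody, and 10 of 10 were higher. The part of these lists in the members' changes was not tested.

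The transcription factors were all lower. Irf7 was at 17.8, 23.5, 18.6 and 15.8 CPM with IgG and 10.6, 7.12, 8.93 and 4.78 with the antibody (log2 change -1.27, SE 0.21, adjusted p = 0.000547). Stat2 was at 33.6, 35.1, 33.5 and 35.2 CPM with IgG and 24.0, 20.5, 22.9 and 17.6 with the antibody (log2 change -0.69, SE 0.091, adjusted p = 0.000156). Irf1 was at 41.9, 43.4, 42.2 and 37.6 CPM with IgG and 31.6, 24.1, 30.9 and 20.7 with the antibody (log2 change -0.62, SE 0.12, adjusted p = 0.00161). In these 3 genes each antibody library was below each IgG library, with the widest relative gap in Irf7. Irf9 fell by 0.40 and its groups overlapped.

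Among the oligoadenylate synthetases all 5 fell without overlap, by 0.99 (Oas3) to 1.41 (Oas2). Oas1a was at 8.22, 8.68, 6.70 and 5.44 CPM with IgG and 3.58, 2.99, 3.40 and 2.32 with the antibody (log2 change -1.24, SE 0.18, adjusted p = 0.000286). Oasl2 was at 16.9, 24.6, 17.9 and 16.8 CPM with IgG and 11.3, 8.47, 10 and 7.0 with the antibody (log2 change -1.05, SE 0.16, adjusted p = 0.000372). In Oasl2, IgG replicate 2 stood above the other IgG libraries.

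The 4 IFIT genes fell without overlap. Ifit1 was at 20, 20.8, 25.2 and 19.5 CPM with IgG and 11.9, 8.86, 10.1 and 5.79 with the antibody (log2 change -1.22, SE 0.18, adjusted p = 0.000286). Ifit3 was at 29.5, 50.7, 38.5 and 43.0 CPM with IgG and 25.2, 21.3, 20.2 and 14.1 with the antibody (log2 change -1.0, SE 0.18, adjusted p = 0.00101). Antibody replicate 4 was the lowest library for both genes. Ifit3b fell by 0.97 and Ifit2 by 0.81.

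Isg15 was at 5.31, 6.89, 7.18 and 5.69 CPM with IgG and 3.66, 3.06, 2.60 and 1.65 with the antibody (log2 change -1.19, SE 0.21, adjusted p = 0.000879). Usp18 was at 5.22, 4.96, 5.79 and 4.43 CPM with IgG and 2.77, 2.16, 2.58 and 1.78 with the antibody (log2 change -1.13, SE 0.16, adjusted p = 0.000236). Both the modifier and its protease were lower in every antibody library. The ADP-ribosylation module moved less: Parp14 changed by -0.53, Dtx3l by -0.22 and Parp9 by -0.15, with overlap in all 3, and Parp9 was not called (adjusted p = 0.127). The Dtx3l call (adjusted p = 0.0414) was lost without antibody replicate 1, 2 or 4 or without IgG replicate 1, 2 or 3, at changes of -0.17 to -0.23, and Parp9 passed without IgG replicate 1 (-0.20, adjusted p = 0.0371).

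All 10 antiviral effectors fell without overlap. Mx1 had the lowest change of any member: it was at 7.17, 6.33, 5.65 and 3.63 CPM with IgG and 2.92, 2.25, 2.20 and 1.06 with the antibody (log2 change -1.43, SE 0.28, adjusted p = 0.00157). That call was lost with a transcript-length offset (-0.77, adjusted p = 0.0602) and with protein-coding transcripts only (-1.01, adjusted p = 0.236). Rsad2 was at 36.2, 40.7, 39.8 and 29.7 CPM with IgG and 22.1, 16.2, 19.3 and 14.1 with the antibody (log2 change -1.03, SE 0.14, adjusted p = 0.000189). Bst2 was at 15.8, 22.4, 15.7 and 16.7 CPM with IgG and 10.6, 7.33, 9.03 and 5.17 with the antibody (log2 change -1.14, SE 0.20, adjusted p = 0.000716). Rsad2 encodes an enzyme that makes a chain-terminating nucleotide, and it and Bst2 were lower in every antibody library. Rtp4 (-1.15), Ifi44 (-1.01), Trim30a (-0.91), Xaf1 (-0.88), Ifi35 (-0.57) and Cmpk2 (-0.46) were also lower.

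The sensors split. Zbp1 was at 4.94, 7.24, 5.54 and 5.42 CPM with IgG and 2.96, 2.53, 2.63 and 1.83 with the antibody (log2 change -1.22, SE 0.17, adjusted p = 0.000255), and Dhx58 fell by 0.98. Ddx58 was at 65.9, 68.3, 69.0 and 72.6 CPM with IgG and 60.6, 55.0, 57.2 and 50.9 with the antibody (log2 change -0.30, SE 0.067, adjusted p = 0.00304). Ifih1 was at 24.1, 25.4, 25.0 and 24.0 CPM with IgG and 23.3, 24.3, 31.1 and 24.6 with the antibody, with overlap and antibody replicate 3 above the rest (log2 change 0.069, SE 0.090, adjusted p = 0.537). Ifih1 was the highest of the 40 changes and passed in 1 alternative, the transcript-length offset (0.29, adjusted p = 0.017).

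The GTPases divided into 4 that fell and 4 that were not called. Gbp5 was at 23.0, 25.0, 26.6 and 22.3 CPM with IgG and 16.9, 13.9, 20 and 18.1 with the antibody (log2 change -0.49, SE 0.11, adjusted p = 0.00273). Iigp1 was at 39.8, 40.5, 41.3 and 50.8 CPM with IgG and 31.3, 16.2, 27.9 and 23.6 with the antibody (log2 change -0.80, SE 0.17, adjusted p = 0.00232). Gbp7, the lowest of the type II members, was at 134, 129.9, 126 and 117 CPM with IgG and 93.1, 58.7, 71.4 and 62.4 with the antibody (log2 change -0.83, SE 0.13, adjusted p = 0.000376). These 3 and Gbp3 (-0.54) had no overlap. Gbp2 was at 57.6, 81.2, 67.2 and 71.8 CPM with IgG and 64.4, 43.6, 61.0 and 57.3 with the antibody (log2 change -0.30, SE 0.13, adjusted p = 0.0701) and passed without antibody replicate 1 (-0.36, adjusted p = 0.044) or IgG replicate 1 (-0.38, adjusted p = 0.0286). Irgm1 was at 89.1, 87.4, 89.5 and 82.1 CPM with IgG and 88.4, 82.4, 103 and 83.5 with the antibody (log2 change 0.036, SE 0.078, adjusted p = 0.714). Igtp was at 19.6, 19.5, 19.3 and 20.1 CPM with IgG and 16.7, 16.4, 21.0 and 18.1 with the antibody (log2 change -0.12, SE 0.084, adjusted p = 0.244). The immunity-related GTPases Irgm1, Igtp and Irgm2 (0.043) overlapped between groups, while Iigp1 of the same family did not. Irgm2 had the highest change of the type II members. Among the 30 members with a promoter, 14 of the 19 with an ISRE match were lower (median -0.83) and 11 of the 11 without one (median -0.81).

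**Figure D2:**
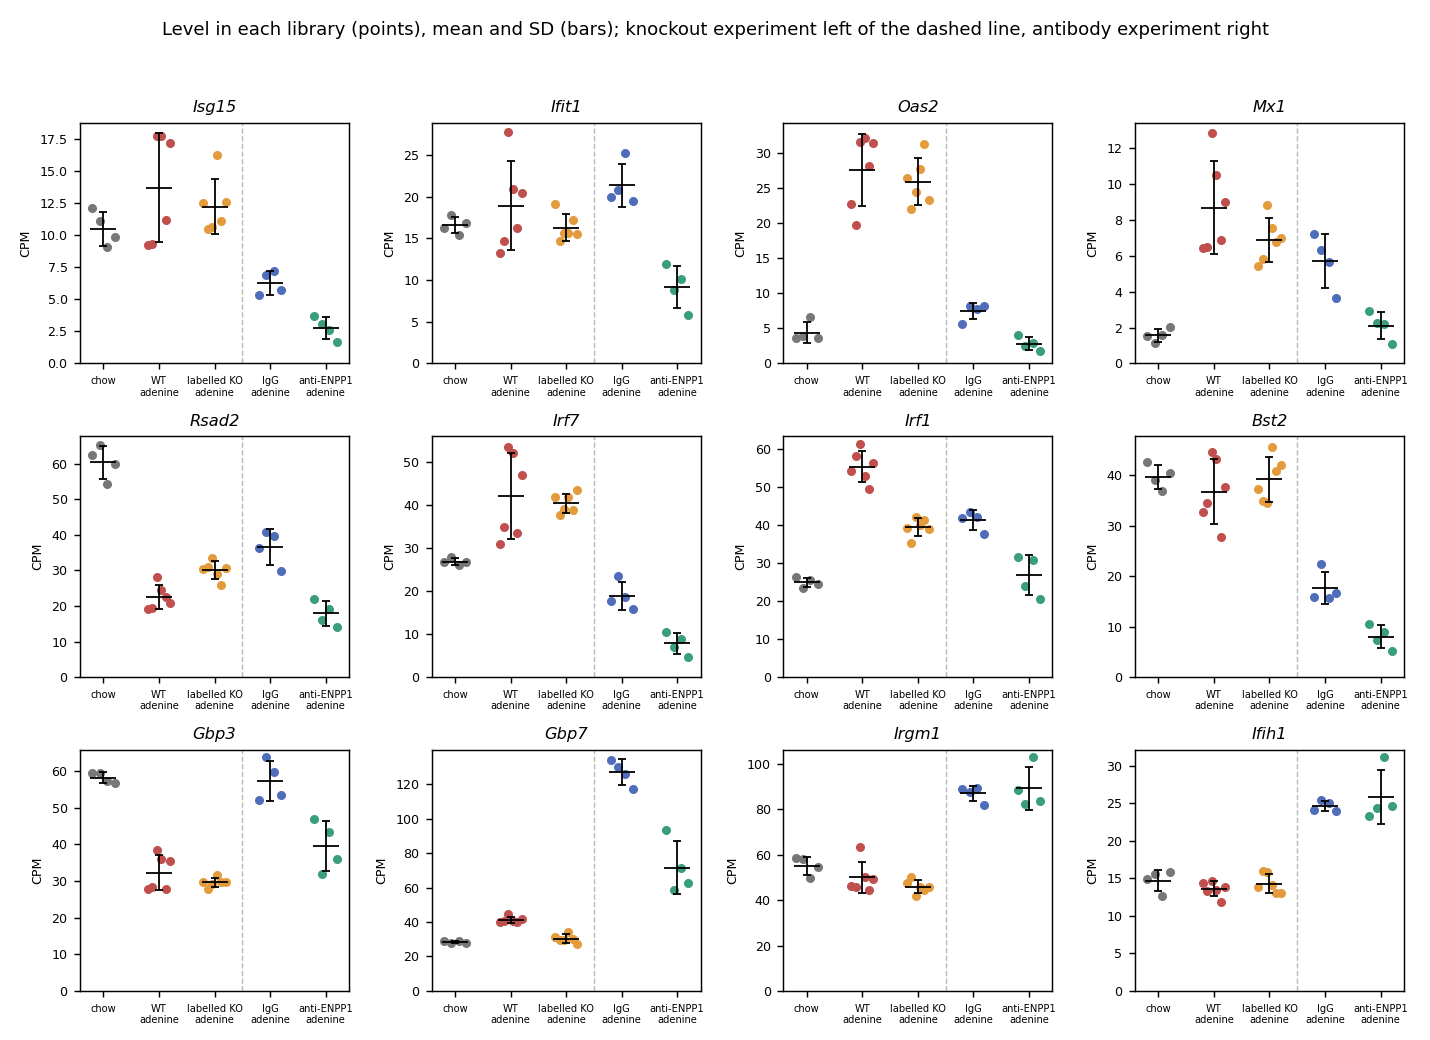
CPM of 12 members in every library of the 5 groups, with the group mean and SD; the 2 experiments are not on a common scale of mice or sex. Isg15 runs from 9.19 to 17.7 in wild-type adenine and from 1.65 to 3.66 with the antibody, below the 5.31 to 7.18 of IgG, while Ifih1 and Irgm1 overlap between antibody and IgG.

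The difference between the 2 interventions was tested directly, as the labelled knockout effect minus the antibody effect over the 20 adenine libraries. It was positive in 24 of 40 members and negative in 2, beside 16.3% and 21.6% of the 17119 genes tested, so the antibody's log2 change lay below that of the labelled knockout in those 24. The median difference was 0.69 over the members and -0.026 over all genes. All 26 called members belonged to the type I subset (24 and 2 of 31, median 0.91). Of the 9 type II members none passed in the main edgeR test (median 0.060), 3 had an unadjusted p under 0.05, and DESeq2 called 0. Upper-quartile scaling took the share of positive differences among all calls from 43.0% to 69.1%. With it edgeR called the type II members Iigp1 (0.71, adjusted p = 0.0196), Gbp7 (0.47, adjusted p = 0.01) and Gbp3 (0.49, adjusted p = 0.0144). Gbp7 also passed with a replicate block (0.33, adjusted p = 0.0381) and with protein-coding transcripts only (0.35, adjusted p = 0.0412). The difference between the subsets was not tested. The experiments also differ in sex-linked expression and in depth, and each effect was taken within its own experiment. Marker lists differed between the 2 effects as well. The difference was positive in 13 of 14 macrophage markers (median 1.12) and 6 of 7 fibroblast markers (median 1.59). It was positive in 5 of 5 red blood cell markers (median 3.58) and in 2 of 13 tested T and NK markers (median 0.48). Of 10 proximal tubule markers 4 were negative and 0 positive (median -0.30). The part of these lists in the members' differences was not tested.

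The difference was largest for Rsad2 (1.38, SE 0.16, adjusted p = 5.86e-06), where the labelled knockout effect was 0.42 and the antibody effect -1.03. It was 1.19, SE 0.18, adjusted p = 4.91e-05 for Usp18 and 1.14, SE 0.24, adjusted p = 0.00102 for Irf7. For Isg15 it was 0.95, SE 0.30, adjusted p = 0.0163, and without the 2 antibody-experiment libraries farthest in tissue markers it was 0.74 (adjusted p = 0.0787). With a transcript-length offset the differences of Mx1 (0.31, adjusted p = 0.57) and Mx2 (0.82, adjusted p = 0.0747) were no longer called. The type II regulator Irf1 was lower in both comparisons, with effects of -0.49 and -0.62 and a difference of 0.060 (adjusted p = 0.733). Among the type II members the largest difference was that of Iigp1 (0.56, SE 0.23, adjusted p = 0.0557) and the lowest that of Irgm1 (-0.23, SE 0.11, adjusted p = 0.117). Iigp1 passed without wild-type replicate 3 (0.65, adjusted p = 0.0289) or 4 (0.68, adjusted p = 0.0254) or antibody replicate 1 (0.69, adjusted p = 0.022). Gbp7, Gbp3 and Ifit2, with adjusted p of 0.0512, 0.0676 and 0.0506, also passed without single libraries, for example without antibody replicate 1 (0.46, 0.42 and 0.73). The negative differences of Ddx58 (-0.22, adjusted p = 0.0479) and Dtx3l (-0.23, adjusted p = 0.0482) were lost on leaving out single libraries of any of the 4 groups, with adjusted p up to 0.12 and 0.133. Over all 28 alternatives the Ddx58 difference ran from -0.95 to 0.21, with 11 called and a lowest adjusted p of 0.000122. Its size and sign thus depended on the processing. The Dtx3l difference ran from -0.28 to -0.079, with 10 called.

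**Figure D3:**
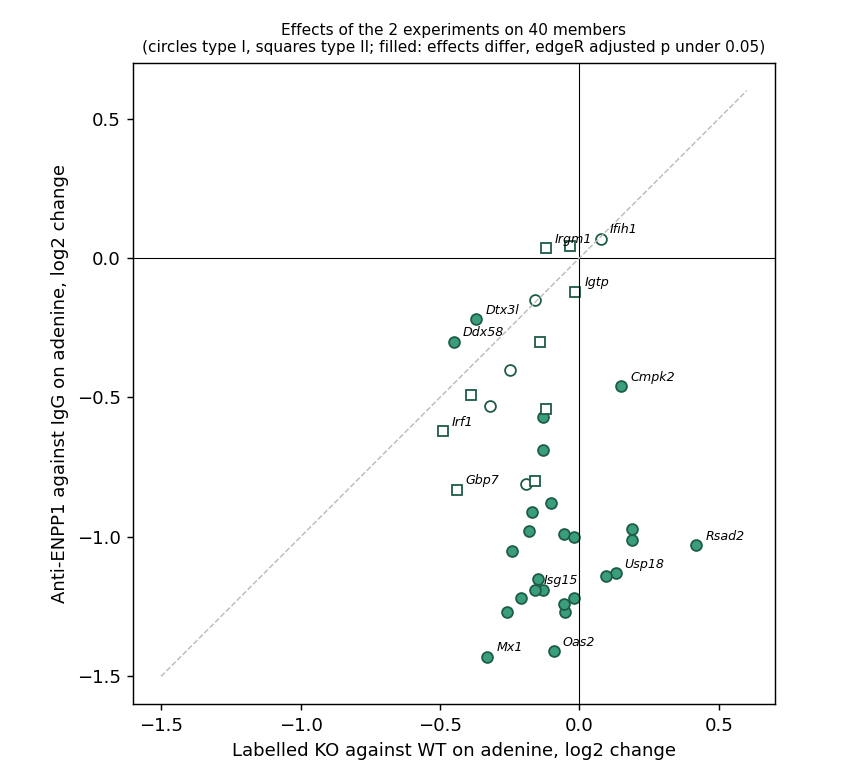
Log2 effect of the labelled knockout (horizontal) against that of the antibody (vertical) for the 40 members, with type I members as circles and type II members as squares; filled symbols are members whose effects differ at an adjusted p of 0.05. Rsad2 sits farthest from equality (0.42 against -1.03), and Irf1 close to it (-0.49 against -0.62).

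The genes upstream of the members were read from lists of the pathway. Of 11 interferon ligand genes none had enough reads to be tested: over a whole group Ifnb1 had 0 reads on chow, 2 in wild-type adenine, 1 in the labelled knockout, 1 with IgG and 0 with the antibody, and Ifng had 10, 18, 10, 11 and 5. Ligand transcripts were therefore at or near the limit of this depth in every group. Of 6 receptor genes 4 were higher and 2 lower in wild-type adenine than on chow, beside 44.0% and 40.9% of all tested genes. Ifnlr1, the receptor chain for type III interferon, changed most, by 2.28, then by -0.73 in the labelled knockout and by -0.47 with the antibody. With the antibody 4 of 6 receptors were lower and none higher, beside 28.0% and 27.2% of all tested genes, and Ifnar1 was not called (0.12) while Ifnar2 fell by 0.39.

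Of the 11 genes of nucleic acid sensing upstream of interferon, 9 were higher and 2 lower after adenine, 1 higher and 6 lower in the labelled knockout, and 1 higher and 6 lower with the antibody. Over all tested genes 44.0% were higher and 40.9% lower after adenine, 25.1% and 21.3% in the labelled knockout, and 27.2% and 28.0% with the antibody. Cgas, the DNA sensor that makes cGAMP, was at 1.49, 2.52, 2.42 and 2.64 CPM on chow, 5.33 to 7.12 CPM (median 5.71) in wild-type adenine and 4.00 to 5.45 CPM (median 4.67) in the labelled knockout (log2 changes 1.38 and -0.34). It was at 6.53, 6.16, 5.5 and 5.5 with IgG and 2.99, 1.30, 2.74 and 2.17 with the antibody (log2 change -1.36, SE 0.22, adjusted p = 0.00044). Sting1, the receptor for cGAMP, changed by 2.20 after adenine, by -0.12 in the labelled knockout, which was not called, and by -0.62 with the antibody.

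The inhibitors of the pathway were 5 higher and 3 lower of 8 after adenine, beside 44.0% and 40.9% of all tested genes, with Socs3 at 4.81 and Socs1 at 1.08. None was higher and 5 were lower in the labelled knockout, where 21.3% of all tested genes were lower. With the antibody 4 of the 8 were lower, where 28.0% of all tested genes were. Socs1, induced by type II interferon, changed by -0.87 with the antibody (adjusted p = 0.0406) and was not called in the labelled knockout (-0.34, adjusted p = 0.0573). The chemokine gene Cxcl10 changed by 1.81 after adenine, by -0.42 in the labelled knockout (adjusted p = 0.0573) and by -0.71 with the antibody (adjusted p = 0.00386).

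The summed level of the type I members varied between libraries of a group. The 31 type I members summed to 717, 715, 920.2, 859, 733 and 821 CPM in wild-type replicates 1 to 6 and to between 679 and 749.7 in the labelled knockout. On chow the sum was 511 to 576, with IgG 617 to 724 and with the antibody 362 to 482. Wild-type replicates 3, 4 and 6 were the 3 highest in Isg15, Irf7, Ifit1 and Mx1, as in the sum, of which these genes are part. Other type I members were ordered otherwise. In Irf9 replicate 4 (56.7 CPM) was below replicate 1 (58.9), and in Rsad2 replicate 5 (22.6) was above replicate 6 (20.9). B and plasma cell markers in wild-type replicates 1 to 6 summed to 18.7, 17.3, 36.2, 33.7, 15.4 and 27.9 CPM, and macrophage markers to 627, 576, 508, 629.8, 435 and 526. The libraries highest in type I members were thus the highest in the B and plasma cell list, while the 3 highest in the macrophage list were replicates 4, 1 and 2. Plasmacytoid dendritic cell markers were lowest in replicates 3 and 4 (5.90 and 6.17 CPM, in a group range of 5.90 to 7.23). Genes of that list did not move together. In wild-type adenine against chow 2 of 5 tested were higher and 2 lower, from -4.11 (Cox6a2) to 2.68 (Pacsin1). Its sum is therefore not a measure of 1 cell type. T and NK markers were lowest in replicate 4 (20.8). Neutrophil markers were lowest in replicate 3 (43.3), with replicate 4 at 49.6, below replicate 1 only. The part of these lists in the spread was not tested. The 9 type II members summed to 244 to 274 CPM on chow, 231 to 308 in wild-type adenine and 210.1 to 227 in the labelled knockout, and to 480.1 to 518 with IgG and 310.0 to 416 with the antibody.

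**Figure D4:**
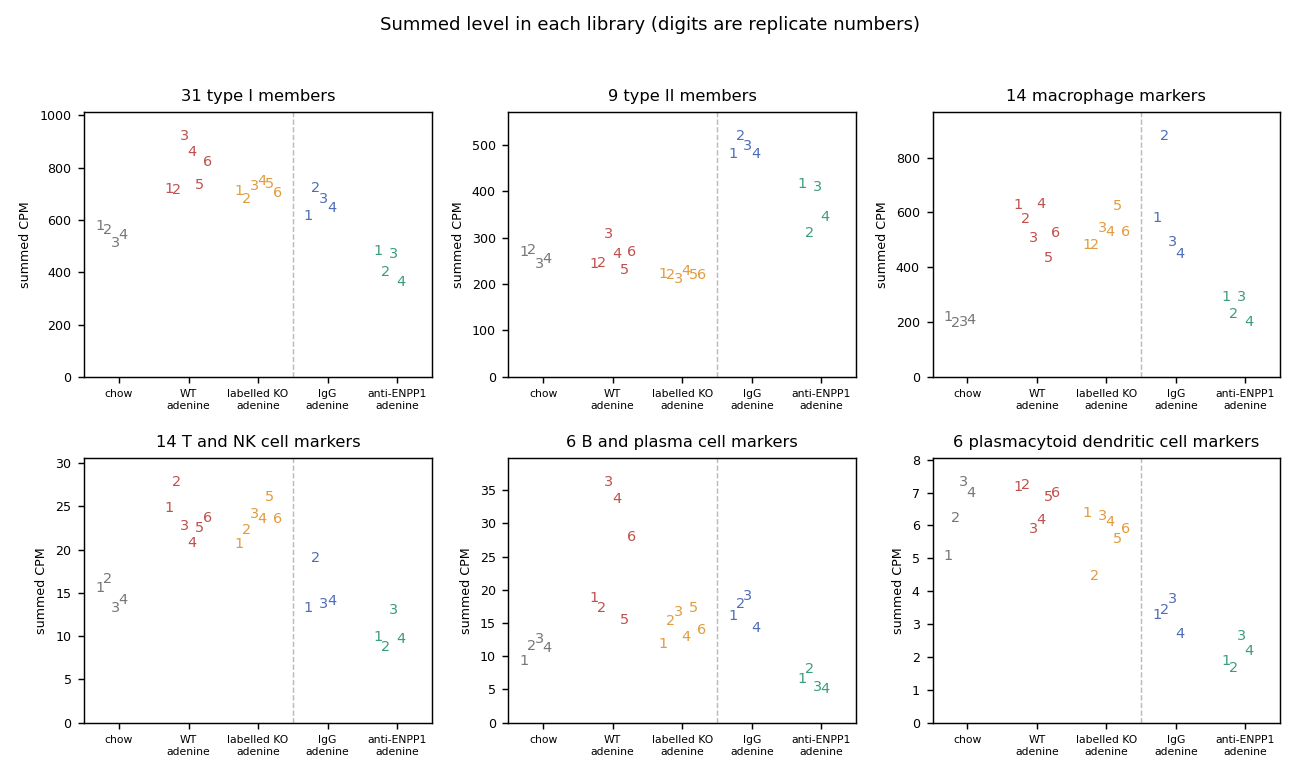
Summed CPM per library of the 31 type I members, the 9 type II members and 4 lists of immune cell markers in the 5 groups, with digits giving replicate numbers. Wild-type replicates 3, 4 and 6 are the highest of their group in type I members (920.2, 859 and 821) and in B and plasma cell markers (36.2, 33.7 and 27.9). Replicates 3 and 4 are the lowest of that group in plasmacytoid dendritic cell markers (5.90 and 6.17), a list whose genes moved both ways between chow and wild-type adenine.

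Ddx58 was taken apart by transcript after its values were seen, since its change with the antibody turned from -0.30 to 0.40 (adjusted p = 0.0146) when protein-coding transcripts alone were summed. The coding transcript Ddx58-201 was at 19.5, 23.4, 27.0 and 29.1 CPM with IgG and 34.6, 35.8, 35.9 and 31.1 with the antibody. The processed transcript Ddx58-205 was at 35.9, 36.3, 33.9 and 34.1 CPM with IgG and 20.7, 14.7, 16.7 and 15.5 with the antibody. The groups did not overlap for either, in opposite directions. The coding share of the gene was 29.6% to 40.1% with IgG and 57.2% to 65.1% with the antibody, and 22.9% to 29.0% on chow, 39.6% to 47.3% in wild-type adenine and 40.4% to 48% in the labelled knockout. These shares rest on the authors' division of reads among overlapping transcripts.

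**Figure D5:**
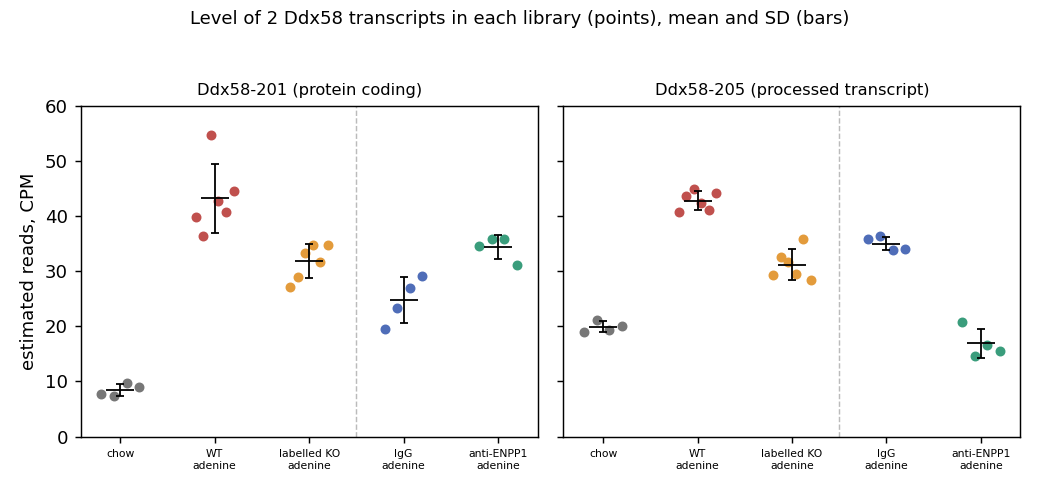
CPM per library of the coding transcript Ddx58-201 and the processed transcript Ddx58-205 in the 5 groups. The antibody libraries lie above IgG in the coding transcript (31.1 to 35.9 against 19.5 to 29.1) and below IgG in the processed transcript (14.7 to 20.7 against 33.9 to 36.3).

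The genes outside the list whose levels were most like the type I members over the 20 adenine libraries, each centred on its group mean, were Ifitm3 (Pearson r 0.92), Slc12a4 (0.91), Msn (0.91), Rab13 (0.89) and Gm21188 (0.88). Ifitm3 is itself interferon-inducible. The points share library, depth and tissue makeup, and the correlations are given as descriptions.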

How the data were processed

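Bulk kidney RNA-seq from 24 libraries was read at the transcript level. Per the labels' protocols, stranded libraries were prepared with 400 ng of RNA each. The submitters' processing notes name Salmon, the build GRCm39, FastQC, DESeq and DESeq2, without versions in the sources used here. Estimated counts per transcript, unscaled and not always whole, were deposited by the authors. The authors' TPM values, which correct for transcript length, were used to compare levels between genes. Deposited effective lengths, per the file headers, entered the transcript-length offset.

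Of 116755 transcripts, 115685 (99.1%) were named through GENCODE M21; the rest held 0.44% to 0.53% of reads and were left out. Because that annotation is on another build, no coordinates of the files are given. Counts were summed per gene and rounded. Reads shared by near-identical genes (Ifit3 with Ifit3b, the Gbp and Irgm families) or overlapping genes depend on the authors' division, so those values carry that uncertainty.

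Testing used the quasi-likelihood test of edgeR 4.0.16 (R 4.3.3) after filterByExpr and TMM, without covariates, with Benjamini-Hochberg adjustment over all tested genes and a threshold of 0.05, two-sided. Separate fits were made for the 16 knockout-experiment libraries, for the 8 antibody-experiment libraries and, for the difference of effects, for the 20 adenine libraries. Intervals are at 95%, and log2 changes are differences of fitted log2 CPM. On simulated counts the test recovered 66% of genes changed by 0.5 and 93.9% of those changed by 1 (log2) for labelled knockout against wild type, over 16809 genes, and 41% and 74.5% for antibody against IgG, over 16243 genes. False calls numbered 11 and 9. Each size was given to 98 to 100 genes, far fewer than were called in the data. The adjustment was therefore stricter there, and the rates do not give the power of the real tests.

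Alternatives were RLE and upper-quartile scaling, no filter (at least 1 read), a transcript-length offset, a replicate block, DESeq2 1.42.0 and leaving out each library. Summing protein-coding transcripts only, and leaving out the 2 libraries of the antibody experiment farthest in tissue markers, were chosen after seeing the data. The members and lists were chosen with earlier results of these data known. Named genes were 20 members fixed by name, the highest and lowest change per subset and comparison, Cgas, Sting1, interferon and receptor genes, Socs1, Cxcl10, the extremes of each list and the 5 genes most like the type I members. The list of signal transducers is not reported here. The 12 members plotted by library were picked to span the roles.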

Additional observations from a re-analysis of the deposited data

Results flagged for a closer look

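In 16 of 260 group-by-item sets examined, 1 library stood apart from its group by Dixon's criterion; chance flags about 1 in 20 such sets. Among type I members these were Isg15 in labelled knockout replicate 4 (16.2 CPM), Ifit3 in labelled knockout replicate 2 (37.5), Oas2 in chow replicate 3 (6.58), Stat2 in chow replicate 3 (31.5), Oasl2 in IgG replicate 2 (24.6), Bst2 in IgG replicate 2 (22.4), Ifih1 in antibody replicate 3 (31.1), Parp14 in wild-type adenine replicate 3 (70.8), and Cmpk2 in labelled knockout replicate 2 (14.6) and antibody replicate 4 (9.48). Among type II members they were Irgm1 in wild-type adenine replicate 3 (63.5 CPM), Irgm2 in labelled knockout replicate 3 (15.8) and Iigp1 in IgG replicate 4 (50.8). Among summed marker lists they were T and NK markers in IgG replicate 2 (19.0 CPM), neutrophil markers in wild-type adenine replicate 1 (63.3) and markers of other kidney segments in wild-type adenine replicate 3 (2514).

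For 26 members the labelled knockout effect and the antibody effect differed in edgeR's test of the difference itself, at an adjusted p under the threshold. Positive log2 differences, where the antibody effect was the lower, were 1.38 for Rsad2, 1.25 for Oas2, 1.19 for Usp18, 1.16 for Bst2, 1.14 for Irf7, 1.13 for Ifi44, 1.12 for Zbp1, 1.11 for Oas1a, 1.08 for Ifit3b and 1.02 for Mx1. They were 0.98 for Oasl1, 0.95 for Isg15, 0.93 for Ifit1, Mx2 and Rtp4, 0.91 for Ifit3, 0.86 for Oas3, 0.74 for Oasl2, 0.72 for Dhx58, 0.71 for Xaf1, 0.67 for Trim30a, 0.53 for Cmpk2, 0.49 for Stat2 and 0.36 for Ifi35. Negative differences were -0.22 for Ddx58 and -0.23 for Dtx3l.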

How the results depend on the processing

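Of 3875 values recomputed for the members, 3628 kept their direction and side of the threshold, 89 lost a call, 74 gained one and 84 changed sign. Calls kept under every alternative numbered 28 of 31 for wild-type adenine against chow, 7 of 10 for labelled knockout against wild type, 24 of 32 for labelled knockout against chow, 32 of 34 for antibody against IgG and 18 of 26 for the difference of effects. These counts take a call in either direction. The 32 include Ddx58, which was called lower in the main test and higher with protein-coding transcripts only (0.40, adjusted p = 0.0146). Between 32 and 37 members were lower with the antibody under every setting. The cause of each change was not tested. The ligands had too few reads to be tested, and Oas3 and Mx2 had the fewest reads of the members.

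With upper-quartile scaling, which shifted the median of all genes by 0.23, -0.064, 0.16, -0.16 and 0.16 in the 5 comparisons, 16 members were lower in the labelled knockout against wild type, 6 against chow, and 0 had a negative difference of effects. Signs changed for Ifih1 (0.11), Bst2 (0.11) and Irgm1 (0.082) after adenine, for Ifit1 (0.14), Ifit2 (0.13), Usp18 (0.049), Ifih1 (0.12), Bst2 (0.14) and Gbp2 (0.13) in the labelled knockout against chow, for Ifih1 (-0.086), Irgm1 (-0.12) and Irgm2 (-0.11) with the antibody, and for Ifih1 (0.086), Parp9 (0.067) and Irgm2 (0.0021) in the difference of effects. With protein-coding transcripts they changed for Ifih1 (0.020) and Bst2 (0.0068) after adenine, Oas2 (0.0047) and Irf7 (0.083) in the labelled knockout against wild type, Ifit1 (0.074), Ifit2 (0.067), Ifih1 (0.044), Bst2 (0.060) and Gbp2 (0.069) against chow, Ifih1 (-0.0089), Ddx58 (0.40), Irgm1 (-0.031) and Irgm2 (-0.029) with the antibody, where 1 member was then higher, and Mx1 (-0.050) in the difference, where 1 was negative. With the length offset they changed for Usp18 (0.0020) after adenine, Zbp1 (0.037), Xaf1 (0.018) and Igtp (0.0058) in the labelled knockout against wild type, Usp18 (0.014) and Bst2 (0.0028) against chow, and Ddx58 (0.21) in the difference, where 1 was negative; 1 member, Ifih1, was higher with the antibody. Gbp5 changed sign in the difference under RLE (-0.0028) and DESeq2 (-0.0059). With no filter 0 differences were negative. Without antibody replicate 4 and IgG replicate 2, 1 was negative, Irf1 was at -0.064, and the medians were -0.73 with the antibody and 0.49 for the difference.

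Leaving out 1 library at a time gave 1 to 2 members higher in the labelled knockout against wild type and 0 to 2 negative differences of effects. Changes spanned 0 in the labelled knockout against wild type for Ifit3 (-0.070 to 0.060), Oas1a (-0.11 to 0.057), Oas3 (-0.14 to 0.0017), Irf7 (-0.13 to 0.027), Zbp1 (-0.085 to 0.084), Igtp (-0.066 to 0.049) and Irgm2 (-0.065 to 0.021), and against chow for Ifit1 (-0.074 to 0.033), Ifit2 (-0.075 to 0.056), Ifih1 (-0.078 to 0.019), Bst2 (-0.067 to 0.040) and Gbp2 (-0.052 to 0.046). They did so with the antibody for Ifih1 (-0.017 to 0.12), Irgm1 (-0.023 to 0.076) and Irgm2 (-0.023 to 0.10), and in the difference for Irf1 (-0.042 to 0.14), Ifih1 (-0.12 to 0.025), Gbp2 (-0.014 to 0.17), Gbp5 (-0.059 to 0.10) and Igtp (-0.020 to 0.10). None of these was called with all libraries.

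Groups share replicate numbers in the labels, but same-numbered libraries did not deviate together: correlations of their deviations were -0.14 to 0.07 over 14 pairs and -0.08 to -0.01 over 4 pairs, so the numbers were not taken as pairing. A replicate block gave 23 higher and 8 lower members after adenine, 1 and 10 in the labelled knockout against wild type, where Mx1 was then called lower (-0.30, adjusted p = 0.0267), 21 and 9 against chow (with Ifih1 at 0.011 and Gbp2 at 0.0039), 0 and 33 with the antibody, and 26 and 0 in the difference.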

Other observations

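Most interferon-inducible genes outside the 40 members were lower with the antibody too. Of 53 such genes from a list, 40 were lower and 2 higher with the antibody than with IgG in edgeR's test, beside 28.0% and 27.2% of all tested genes. In the labelled knockout 13 were lower and 7 higher than in the wild type, beside 21.3% and 25.1%. In wild-type adenine 28 were higher and 11 lower than on chow, beside 44.0% and 40.9%. Ifi27l2a changed most with the antibody (log2 change -1.78, SE 0.26, adjusted p = 0.000268) and the helicase gene Znfx1 rose (0.31, SE 0.076, adjusted p = 0.00548). After adenine the changes ran from -1.21 for Ifitm1, a membrane protein that blocks viral entry, to 2.33 for Ifi207. In the labelled knockout they ran from -0.47 for the GTPase gene Ifi47 to 0.52 for Ifitm2. The catalytic subunits of the immunoproteasome, which type II interferon induces for antigen presentation, fell with the antibody by 0.86 (Psmb8), 0.76 (Psmb9) and 0.62 (Psmb10), and Ciita, the master regulator of MHC class II genes, fell by 0.77. Ciita rose by 2.14 after adenine and was lower by a log2 change of -0.41 in the labelled knockout than in the wild type. Macrophage markers were lower with the antibody in 13 of 14, and their part in these changes was not tested.

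The coding share of other members varied as well. It ranged from 1.34% to 20.6% of reads for Oasl2 and from 0% to 45.8% for Mx1 over the libraries, and it was 0% for Mx2 in all but 1 chow library (76.5%), as the authors' quantification divided them, so changes of these genes rest mainly on transcripts annotated as non-coding. For Gbp5 the coding share was 15.5% to 45.5% in the knockout experiment and 57.4% to 73.7% in the antibody experiment. For Irf7 it was 57.0% to 70.0% on chow and 27.6% to 47.5% in wild-type adenine.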
